A study of Homo sapiens with 14 samples.

Results

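The regions described here are CTCF sites of the human T cell line Jurkat that were called in every CTCF library, with and without knockdown of SATB1, and that lay outside all SATB1 and H3K27ac peaks. Peaks of the 6 CTCF lists on chromosomes 1 to 22 and X were merged where they shared at least 1 bp, which gave 34146 regions. Of these, 12184 (35.7%) were called in all 6 lists and are named retained regions below. A total of 4456 retained regions (36.6% of them) overlapped no peak of either SATB1 list and no peak of the 4 H3K27ac lists. They are called unmarked regions, and the other 7728 retained regions are called marked: 2056 carried H3K27ac, 311 carried SATB1 and 5361 carried both. A further 4810 regions without either mark were lost, that is, called in every shCtrl CTCF library and in no shSATB1 library. The calls used to choose the regions are a description and were not tested. The working name of the set was insulator-like, but the lists measure neither insulation nor looping, so that name was not examined.

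CTCF is a zinc finger protein that binds a long, directional DNA motif. It blocks cohesin as the ring extrudes chromatin loops, and pairs of sites facing each other anchor loops and borders of contact domains. A site between an enhancer and a promoter can insulate them from each other, as at the imprinted IGF2 locus. SATB1 is a chromatin organiser abundant in developing T cells, H3K27ac is an acetylation mark of active promoters and enhancers, and Matrin 3 is an RNA- and DNA-binding protein of the nuclear matrix.

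The series asks how chromatin differs when SATB1 is reduced. Proteins and the histone mark were mapped by CUT&Tag, in which an antibody tethers a transposase that cuts and tags nearby DNA. Jurkat is an established line from a T cell acute lymphoblastic leukaemia. Cells carried a lentiviral control shRNA (shCtrl, genotype control) or an shRNA against SATB1 (shSATB1, genotype SATB1 knockdown). CTCF was mapped in 3 shCtrl and 3 shSATB1 libraries, H3K27ac in 2 of each, SATB1 in 2 shCtrl libraries and Matrin 3 in 2 libraries whose labels name no shRNA. Peak lists hold neither transcript nor protein levels of SATB1, so they do not check the knockdown. Whether replicates were grown as separate cultures is not in the labels, so p-values reflect the spread of these libraries, which may be technical. The CTCF lists held 31141 to 32540 peaks in shCtrl and 14695 to 20284 in shSATB1, and their lowest total signal was 13359 to 14792 and 6017 to 7332. In the SATB1 lists 6001 peaks began at identical positions (40.8% of the shorter list), so these lists count as 1 sample. The Matrin 3 lists held 24566 and 2105 peaks. The depth of the libraries is unknown. As a check on the cell type, H3K27ac lay within 2 kb of an end of 8 of 8 T cell marker genes in both shCtrl lists, of 1 of 4 B cell markers (CD79A), and of none of 4 myeloid, 3 erythroid and 3 epithelial markers.

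Some unmarked regions lie over promoters that hold the CTCF core motif, and the letters of these sites are shown first. RefSeq promoter windows (GRCh38.p14; 250 bases before to 50 after a start) were searched on both strands for CCA, any 2 bases, AG, any 2 bases and GGC. This is a strict form of the 12-base core, so a window without it can still hold a weaker match. The sites below belong to the 6 unmarked regions with the highest mean CTCF percentile that hold a whole window with the motif, so its presence there was fixed by the choice, and to these the TBX21 site was added after its values were seen. Each is read 5′ to 3′ along the motif strand, with the motif in capitals and up to 9 bases on either side.
OTUD3, chr1:19882250-19882279, + strand: taccatccaCCACTAGAGGGCggaatagaa
RRP1, chr21:43789535-43789564, + strand: gcgccggggCCAGGAGGAGGCgggcgcagg
ZNF354A, chr5:178730825-178730854, + strand: gcccacatgCCACAAGAGGGCccctgtgag
LINC02168, chr16:50806699-50806721, - strand: gcCCAGTAGATGGCgctagctca
LINC02724, chr11:64448976-64449005, + strand: ccctggcacCCACTAGATGGCgctcccggc
LOC124903549, chr15:89358756-89358785, + strand: ccggaacgcCCACCAGAGGGCgctgttgga
TBX21, chr17:47733126-47733155, + strand: tagtattagCCACGAGAGGGCggggtgggg

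These sites lay close to the CTCF maxima measured in the libraries. The distance from the motif to the median position of the 6 CTCF maxima was 67 bp at OTUD3, a deubiquitinase gene, 115 bp at RRP1, a ribosomal RNA processing factor gene, and 58 bp at ZNF354A, a zinc finger gene. It was 187 bp at LINC02168, 129 bp at LOC124903549 and 17 bp at TBX21. LINC02724 differed from the rest, with 648 bp between motif and maximum. The motif read in the direction of the gene at OTUD3, RRP1, LINC02724 and TBX21, and against it at ZNF354A, LINC02168 and LOC124903549.

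A percentile here is the rank of a region's highest CTCF peak by maximum signal among all peaks of a list, with 100 as the top. TBX21 encodes T-bet, the transcription factor that directs type 1 helper T cells. The region over its promoter (chr17:47730931-47734902, 3972 bp) stood at CTCF percentiles of 94.01, 95.64 and 94.32 in the shCtrl lists and 89.40, 94.96 and 94.42 in the shSATB1 lists. Its peaks were 2901, 2780 and 3972 bp wide in shCtrl and 2066, 2620 and 2921 bp in shSATB1, ranges that overlap. The nearest H3K27ac peak lay 79.3 kb away, and a Matrin 3 list 1 peak overlapped the region. The 250 bases before the TBX21 start are shown because motif and CTCF maximum coincide most closely there among the sites above.
TBX21 upstream, chr17:47732986-47733235, + strand: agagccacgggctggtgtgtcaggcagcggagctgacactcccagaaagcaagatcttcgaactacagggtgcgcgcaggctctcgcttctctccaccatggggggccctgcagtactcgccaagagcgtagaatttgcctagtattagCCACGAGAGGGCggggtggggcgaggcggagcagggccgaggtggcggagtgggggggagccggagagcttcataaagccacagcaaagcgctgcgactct

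Over all RefSeq promoter windows, 2.41% of 34961 held the motif. Among windows lying whole within unmarked regions the share was 89 of 1339 (6.65%, 95% Wilson interval 5.43 to 8.11), and in marked regions it was 3.00% (2.66 to 3.39). Retained regions with SATB1 alone had 7.23% of 166 windows (4.18 to 12.2), which the unmarked share does not exceed. Lost regions without either mark stood at 4.15% (2.91 to 5.90), and windows in no merged CTCF region at 1.72%. The 89 windows lay in 76 unmarked regions, since neighbouring starts share a region, and windows are not replicates, so no test was made. In those 76 regions the median distance from the CTCF maximum to the nearest motif was 94.5 bp (quartiles 53.5 and 204.75), and 40 regions (52.6%) had it within 100 bp. In 221 marked regions the median was 112 bp and 45.2% lay within 100 bp, a small difference. Of 77 distinct matches, 50 read in the direction of the gene and 27 against it.

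**Figure D1:**
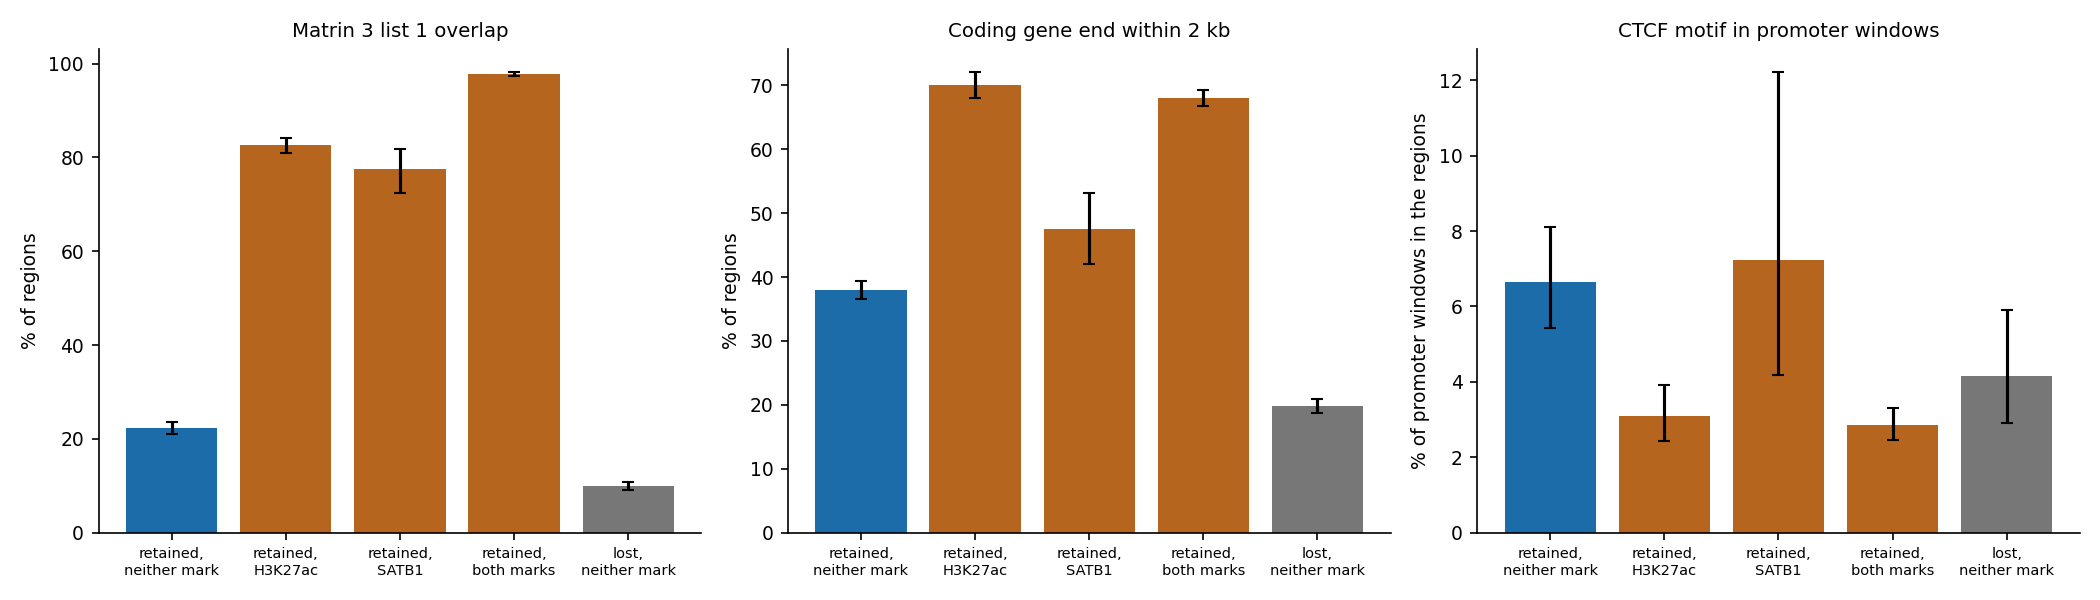
Percent of regions that overlap Matrin 3 list 1 (left), percent with a coding gene end within 2 kb (middle) and percent of RefSeq promoter windows with the CTCF core motif (right), by the marks of the region; bars carry 95% Wilson intervals, for counting error alone. Unmarked retained regions (blue) stand at 22.3%, 38.0% and 6.65%, between lost unmarked regions (grey) and marked regions (orange) in the first 2 panels.

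Unmarked regions lay at gene ends less often than marked ones, and about as often as all merged CTCF regions. A coding gene end lay within 2 kb of 1692 unmarked regions (38.0%, 95% Wilson interval 36.6 to 39.4), beside a background of 36.1% of all merged CTCF regions and 56.9% of all retained regions. The share was 67.7% (66.7 to 68.8) in marked retained regions and 19.8% (18.7 to 21.0) in lost unmarked regions. With SATB1 alone it was 47.6% (42.1 to 53.1). The rule left out regions with H3K27ac, a mark of active promoters, so the contrast with marked regions is partly fixed by the choice. Another 1370 unmarked regions (30.7%) lay elsewhere in a coding gene and 1394 (31.3%) outside coding genes, against 19.3% and 13.0% of marked regions. The median distance to a coding gene end was 5.68 kb for unmarked regions and 16.8 kb for lost ones, and the median was 0 for marked regions. A total of 11 unmarked regions (0.247%) lay within 2 kb of a tRNA gene, against 1.05% of marked regions. The share was 0.354% over all merged regions and 0.292% in retained regions with H3K27ac alone, both close to the unmarked share.

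Where unmarked regions met a gene, it was often at the far end of the transcript. Strand was known for 15812 of 19974 coding genes (79.2%), and among these genes 1368 unmarked regions had an end within 2 kb. The far (3′) end alone was near 520 of them (38.0%, 95% Wilson interval 35.5 to 40.6), the start alone near 626 (45.8%) and both near 222 (16.2%). In marked regions the far end alone accounted for 7.64% (6.90 to 8.45), and in those with SATB1 alone for 12.1% (7.33 to 19.2). In lost unmarked regions it accounted for 38.6% (35.2 to 42.1), so the unmarked retained and lost sets were alike in this within their intervals. Why the far-end share differed was not tested. Of 848 unmarked regions with a start within 2 kb, 5 had H3K27ac within 2 kb of that start in both shCtrl lists. The share was 84.2% in marked regions and 0.980% in those with SATB1 alone. The choice of regions without H3K27ac largely fixes the count in unmarked regions. The median distance from CTCF maximum to start was 375.5 bp in these unmarked regions and 153 bp in the marked ones.

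Genes on either side of the intergenic unmarked regions were counted by H3K27ac at their ends. Over all coding genes, 38.8% had H3K27ac within 2 kb of an end in both shCtrl lists. For 1583 unmarked regions that overlap no coding gene and have a coding gene on either side, a single flanking gene was marked at 763 (48.2%, 95% Wilson interval 45.7 to 50.7). Both flanking genes were marked at 190 regions and neither at 39.8% (37.4 to 42.2). Marked intergenic regions had a single marked neighbour as often (47.3%, 44.3 to 50.3) and neither neighbour marked less often (29.8%, 27.1 to 32.6). The share with a single active neighbour thus differed little between unmarked and marked regions. By peaks alone, H3K27ac of a shCtrl list lay within 100 kb on both sides of 41.3% of unmarked regions, on a single side of 42.1% and on neither side of 16.6%. Over all merged regions these shares were 47.6%, 35.8% and 16.6%. They were 36.3%, 45.0% and 18.6% with SATB1 alone, 59.0%, 32.1% and 8.90% with H3K27ac alone, and 28.7%, 41.2% and 30.1% in lost unmarked regions. A peak that overlapped a region and reached past its edge counted on that side. The rule bars such a peak at unmarked regions. Comparisons with sets that hold H3K27ac, all merged regions included, are therefore partly fixed by the choice. From unmarked regions, the nearest H3K27ac peak of any list was a median of 26.7 kb away (quartiles 10.7 and 62.6), and the nearest SATB1 peak 43.5 kb.

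The 5 unmarked regions named next, all outside genes, showed the largest difference in H3K27ac between their flanks of 100 kb. At the region between SERINC5, a restriction factor for retroviruses, and SPZ1 (chr5:80274034-80277555), H3K27ac peaks covered 71.1 kb on the SERINC5 side and none of the other side in shCtrl (mean of 2 lists). In shSATB1 the values were 65.4 kb and none. The region between SKP1, a ubiquitin ligase subunit, and PPP2CA (chr5:134183086-134185645) had 70.2 kb of H3K27ac on the SKP1 side and 2.19 kb on the other in shCtrl. It lies 34.9 kb from TCF7, a transcription factor of early T cells. Next to CCDC88C (chr14:91424956-91428545) the values were 73.9 and 2.78 kb. Between IRF1, an interferon regulatory factor, and IL5, a type 2 cytokine gene (chr5:132524695-132530019), they were 66.7 kb on the IRF1 side and 1.93 kb on the IL5 side. Between GALNT2 and PGBD5 (chr1:230305404-230312419) they were 52.0 kb and none. These regions were chosen for the contrast in shCtrl, so its size there is a description. In shSATB1 the fuller sides held 49.2 to 67.3 kb, and the same side was the fuller at each of the 5.

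**Figure D2:**
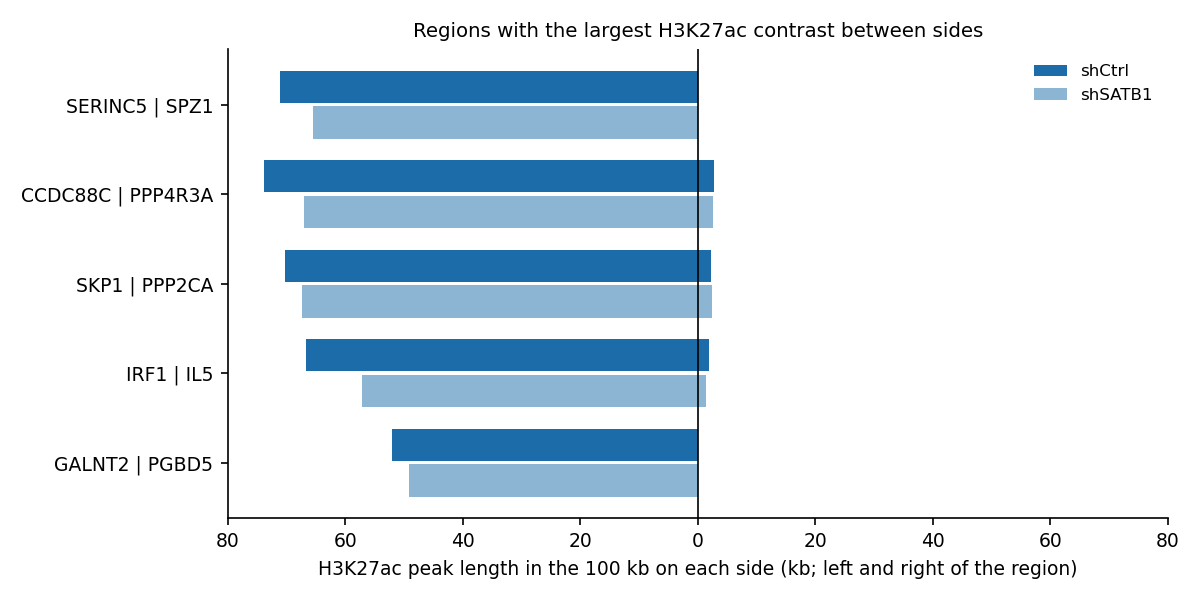
Length of H3K27ac peaks (kb, horizontal axis) in the 100 kb to the left (lower coordinate) and right of 5 unmarked regions, named by the flanking coding genes; dark bars are means of 2 shCtrl lists, light bars means of 2 shSATB1 lists. All 5 have 49.2 to 73.9 kb on the left and at most 2.78 kb on the right.

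The mean share of H3K27ac around unmarked regions was slightly lower in the shSATB1 lists, which no test of 2 against 2 libraries can call. A peak lay within 50 kb of 64.6% and 63.0% of unmarked regions in the shCtrl lists and of 63.1% and 59.7% in the shSATB1 lists. The ranges overlap, and the difference was -2.38 percentage points (exact permutation p = 0.667, two-sided; 2 against 2 cannot go below 0.3333). Within 20 kb the difference was -2.52 points (exact permutation p = 0.3333, the smallest possible). The difference at 50 kb ranged from -0.645 without shSATB1 replicate 2 to -4.08 without shSATB1 replicate 1. With either shCtrl list, the background was 75.2% of all merged regions and 85.6% of retained regions. A peak that overlaps a region counts as within 50 kb, and the rule bars it at unmarked regions. Their lower share is therefore partly fixed by the choice. Of each list's H3K27ac length, 38.1% and 38.0% lay within 100 kb of an unmarked region in shCtrl and 37.5% and 37.2% in shSATB1, a difference of -0.694 points (exact permutation p = 0.3333, the smallest possible). These groups of libraries did not overlap. Around marked regions the shares were 80.4% ± 0.101 (SD, n = 2) and 81.4% ± 0.176 (n = 2), so the groups did not overlap there either, in the opposite direction.

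CTCF peaks at unmarked regions had smaller widths in every shSATB1 library than in any shCtrl library. Their median width was 2915, 3028.5 and 3220.5 bp in the shCtrl lists and 1348, 1607 and 1764 bp in the shSATB1 lists. All shSATB1 values lie under all shCtrl values: 3055 ± 154 bp (SD, n = 3) against 1573 ± 210 bp (n = 3), a ratio of 0.515 (exact permutation p = 0.1, two-sided, the smallest that 3 against 3 allows). Peaks at marked regions measured 3474 ± 164 bp (SD, n = 3) and 1977 ± 283 bp (n = 3; exact permutation p = 0.1). In 3525 unmarked regions (79.1%) every shSATB1 peak was narrower than every shCtrl peak, against a background of 78% of retained regions and 77.4% of marked regions, so this count sets the unmarked regions little apart. Of all unmarked regions, 25 were wider on average in shSATB1. The smaller widths come with shorter peak lists and a lower minimum of total signal in that arm. With all CTCF lists cut to the length of the shortest, the difference was -1486 bp against -1482 bp with the whole lists; cutting removes peaks and leaves the width of the others as called. The part of depth and of the signal minimum in the difference was not tested.

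Relative to marked regions of the same list, unmarked regions had a lower width ratio in the shSATB1 arm, while the difference in bp was alike. It was -1482 bp at unmarked and -1496.5 bp at marked regions. Unmarked regions were the narrower in both arms, and a like loss in bp from a smaller width lowers the ratio by itself. The ratio of median widths, unmarked over marked, was 0.876, 0.879 and 0.882 in shCtrl and 0.803, 0.800 and 0.787 in shSATB1. The groups did not overlap, with 0.879 ± 0.00289 (SD, n = 3) against 0.796 ± 0.00838 (n = 3), a difference of -0.0830 (exact permutation p = 0.1, two-sided, the smallest possible). With CTCF lists of equal length it was -0.0941. The maxima of the libraries lay close together: the 6 CTCF maxima of an unmarked region spanned a median of 106 bp, and in 90.6% of unmarked regions they lay within 500 bp, against 83.3% of marked regions. The mean maximum of the arms differed by a median of 26.3 bp.

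**Figure D3:**
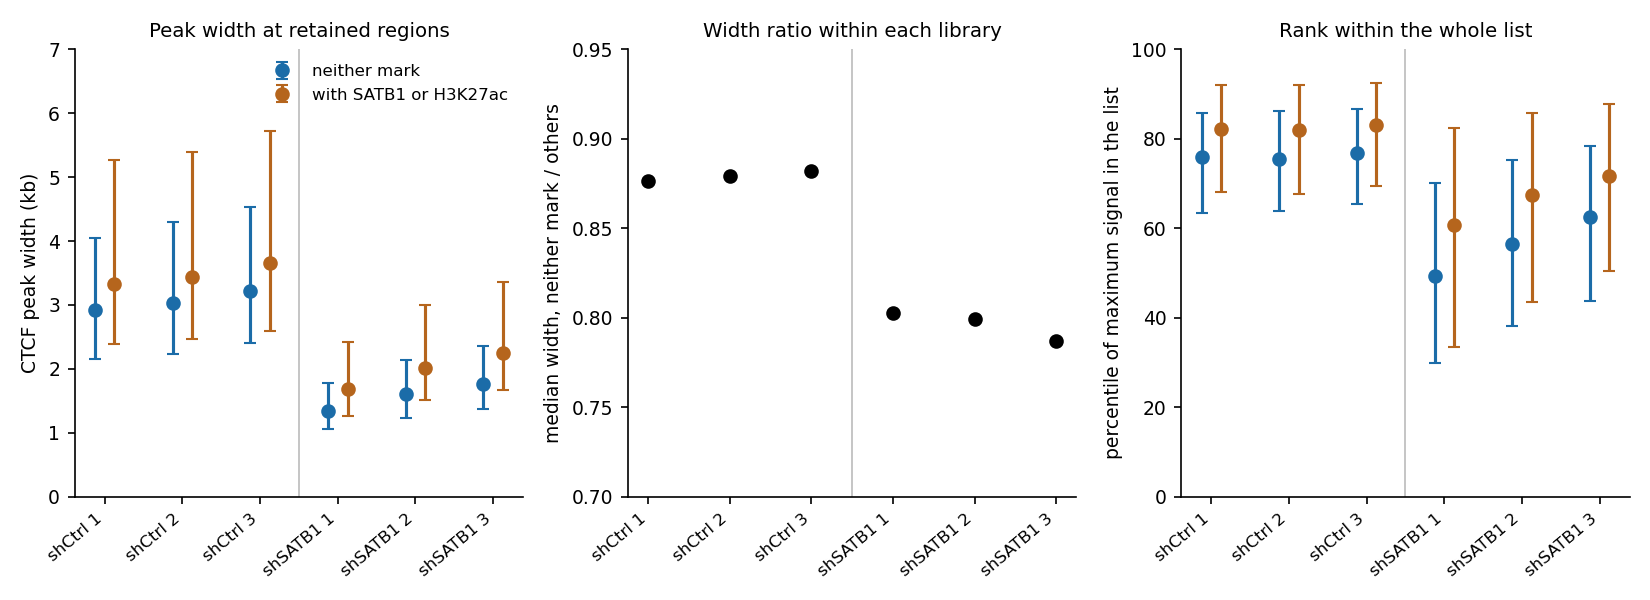
CTCF peak width (left, kb) and percentile of maximum signal within the whole list (right) at unmarked (blue) and marked (orange) retained regions in each CTCF library, as median with quartiles, and the ratio of the median widths (middle; the axis starts at 0.7). The ratio is 0.876 to 0.882 in shCtrl and 0.787 to 0.803 in shSATB1; percentiles come from lists of different lengths and are not compared between arms.

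Unmarked regions ranked below the middle of the retained regions in both arms, and below marked regions in every CTCF list. Percentiles of maximum signal were ranked over the 12184 retained regions alone. The median was 55.8, 55.5 and 55.7 at marked regions in shCtrl and 55.5, 54.9 and 55.1 in shSATB1. At unmarked regions it was 42.0, 41.4 and 41.9 in shCtrl and 43.6, 41.5 and 42.6 in shSATB1. The difference of 0.814 percentile points did not pass (exact permutation p = 0.3, two-sided), was 0.198 without shSATB1 replicate 3, 0.201 without shSATB1 replicate 2, 0.248 in windows on CTCF maxima and 0.0608 with CTCF lists of equal length, and turned to -0.436 when total signal was ranked instead. Within the whole lists the median percentile was 75.8, 75.4 and 76.9 in shCtrl and 49.4, 56.4 and 62.5 in shSATB1; the shSATB1 lists are shorter, so these levels are not compared. Merged unmarked regions were 3909 bp wide at the median (quartiles 2953 and 5294), marked regions 4232.5 bp and lost unmarked regions 2515.5 bp.

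The strongest unmarked regions stood near the top of every list. The first, 2.61 kb from CYP4F22, a fatty acid hydroxylase of the skin barrier (chr19:15554929-15558062), had percentiles of 99.85, 99.82 and 99.84 in shCtrl and 99.82, 99.87 and 99.86 in shSATB1. Its 6 maxima lay within 13 bp. Next came regions inside B9D1, a ciliary transition zone gene (mean percentile over the 6 lists 99.69), at an end of ABCA3, a lipid transporter of lung surfactant (99.67), and 6.61 kb from TBC1D28 (99.49). The region at EXTL1 and SLC30A2, a zinc transporter gene (99.45), the region 18.9 kb from NFASC, a neuronal adhesion molecule (99.44), and that at HPN, a serine protease gene (99.42), followed. GOLGA6B (99.39) belongs to a family of near-identical copies, so its reads may be shared between them. RBM17, a splicing factor gene (99.36), and WNT7B, a signalling ligand gene (99.31), complete the 10. Matrin 3 list 1 overlapped 8 of these 10 regions; ABCA3 and TBC1D28 were the exceptions.

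The RBM17 region is the widest of these (chr10:6082487-6093629, 11143 bp) and lies 20.1 kb from IL2RA, the interleukin 2 receptor alpha chain. Its CTCF peaks covered 9188, 9745 and 9568 bp in shCtrl and 3822, 4711 and 4434 bp in shSATB1. The groups do not overlap, while its percentiles were 98.7 to 99.8 throughout. At HPN (chr19:35064693-35069201) the widths were 4342, 3678 and 4192 bp in shCtrl and 1232, 1527 and 1413 bp in shSATB1. At CYP4F22 the groups overlapped, with 2872, 2655 and 2717 bp against 2314, 2366 and 2958 bp.

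Matrin 3 list 1 overlapped 992 unmarked regions (22.3%, 95% Wilson interval 21.1 to 23.5), beside a background of 47% of all merged regions and 67.1% of retained regions. The share was 92.9% (92.4 to 93.5) in marked regions: 82.6% with H3K27ac alone, 77.5% with SATB1 alone and 97.8% with both. In lost unmarked regions it was 9.88% (9.06 to 10.8). With the stronger 50% of list 1 the unmarked share was 8.06%. The shorter list 2 overlapped 11 unmarked regions (0.247%), 8 of them also in list 1, against a background of 4.81% of merged and 11.5% of retained regions. Both lists map the same target and differ widely in length, and regions are not replicates, so no test was made. The maximum of the Matrin 3 peak lay a median of 46 bp from the CTCF maximum in the 992 regions, and within 250 bp in 84.2% of them. In list 1, peaks at unmarked regions were of middling rank, with a median percentile of 41.2 against 78.4 at marked regions. Signal from open chromatin shared by both targets was not tested.

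The Matrin 3 share went with CTCF rank and with gene ends. With all retained regions divided by CTCF maximum into 4 classes of equal size, from lowest to highest, 14.7%, 14.7%, 24.7% and 46.8% of the unmarked regions overlapped list 1. In regions with H3K27ac alone the same classes had 79.3%, 81.3%, 82.4% and 88.1%, so even the strongest unmarked regions stayed under the weakest of those. In 4 such classes of width, from narrow to wide, the unmarked share was 24.9%, 22.5%, 20.4% and 20.8%, and the intervals of neighbouring classes overlapped. At gene ends it was 34.7% (32.5 to 37.0), inside genes 14.2% (12.5 to 16.2) and outside genes 15.1% (13.3 to 17.0). Unmarked regions beyond 50 kb from H3K27ac had Matrin 3 at 25.3% (23.0 to 27.6), those at 10 to 50 kb at 21.9% (20.2 to 23.8) and those within 10 kb at 18.95% (16.7 to 21.4), so the overlap was not larger next to H3K27ac. The highest Matrin 3 list 1 peaks at unmarked regions were at PINX1, a telomerase inhibitor gene (percentile 98.4), MICALL2 (95.7), inside MPP7 (94.9), at OSBPL2, an oxysterol-binding protein gene (94.3), and 43.8 kb from TMEM161B (93.9).

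**Figure D4:**
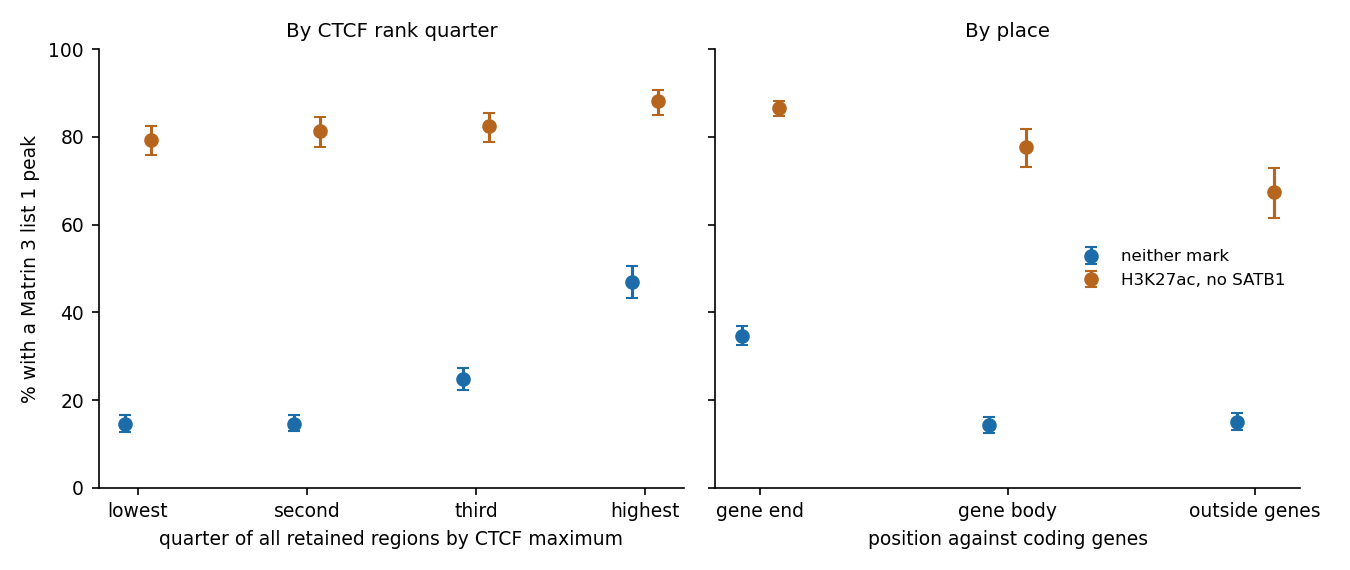
Percent of regions with a Matrin 3 list 1 peak by class of CTCF maximum signal (left, 4 classes of equal size) and by place against coding genes (right), for unmarked retained regions (blue) and retained regions with H3K27ac and no SATB1 (orange); bars are 95% Wilson intervals. The blue points rise from 14.7% to 46.8% over the classes and stay under the orange ones, which span 67.4% to 88.1%.

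Unmarked regions were spaced about as widely as retained regions with both marks, and lay partly in runs. The nearest other unmarked region lay a median of 62.4 kb away (quartiles 20.8 and 179), against 39.0 kb from marked region to marked region and 23.6 kb over all retained regions. The nearest marked region lay a median of 44.4 kb from an unmarked one. Another unmarked region lay within 10 kb of 14.3%, within 50 kb of 43.8% and within 100 kb of 61.8% of them. Along the chromosomes, unmarked regions formed 2562 uninterrupted runs among retained regions, of which 1508 were single regions and 102 held 5 or more (602 regions). Both neighbouring retained regions were unmarked at 18.9% of unmarked and 11.9% of marked regions. A lost region lay within 10 kb of 13.0% of unmarked and 12.9% of marked regions, and the median distance to the nearest lost region was 60.2 and 63.8 kb.

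**Figure D5:**
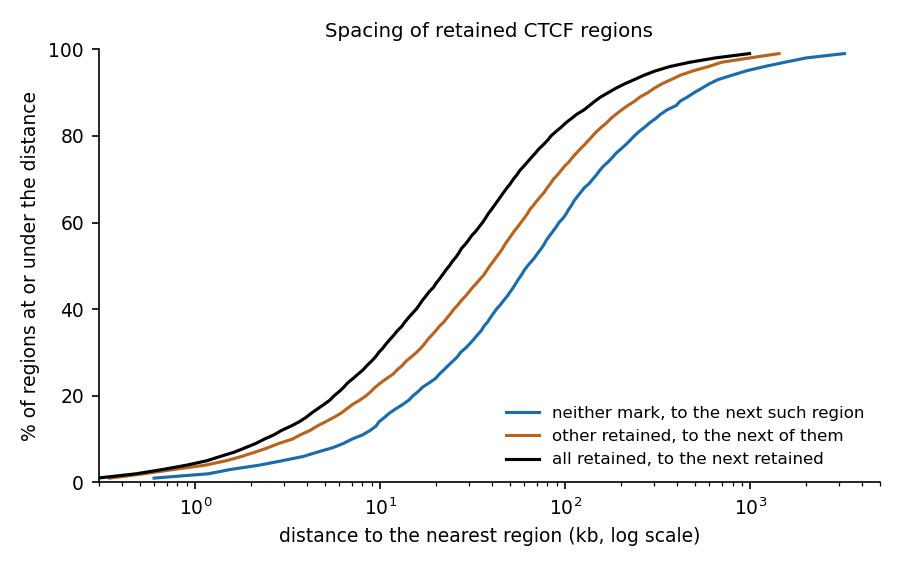
Cumulative percent of regions (vertical axis) against the distance to the nearest region of the same set (kb, log scale), for unmarked regions (blue), marked retained regions (orange) and all retained regions (black). The medians are 62.4, 39.0 and 23.6 kb; a set with fewer regions is spaced more widely.

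The longest run held 12 unmarked regions over 1.06 Mb of chromosome 19 (chr19:42385523-43448585), across LIPE, CEACAM1, CEACAM8 and the pregnancy-specific glycoprotein genes such as PSG1 and PSG11, which are near-identical copies. The next held 11 regions near GPR146, UNCX and INTS1 on chromosome 7, and 10 from MEOX1 to NAGS on chromosome 17. The 1 Mb windows richest in unmarked regions were on chromosome 19 (18 of 38 retained regions, between 48000001 and 49000000, with FUT1, FUT2, FGF21 and BAX) and on chromosome 22 (18 of 31, between 37000001 and 38000000). The latter window holds IL2RB, an interleukin 2 receptor chain, RAC2, a GTPase of blood cells, and LGALS1. A window at 3000001 on chromosome 19 held 17, and windows at 4000001 and 49000001 on chromosome 17 held 16 each. Chromosome 19 had 420 unmarked regions, 42.6% of its retained regions, at a median spacing of 25.7 kb. The share was highest on chromosome 22 (45.3%) and lowest on chromosome 4 (27.5%), with 28.0% on X and 28.1% on chromosome 18.

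At the other extreme, some unmarked regions lay far from any coding gene end. The farthest, 2209 kb from a coding gene end (chr20:28602327-28604104, mean percentile 83.0), overlapped the pseudogene FRG1CP, and a region at chr17:22511934-22514134 lay 807 kb from one; no filter for repeat-rich, artefact-prone sequence was applied. Another lay in the immunoglobulin heavy chain locus IGH (chr14:106773875-106775467), 1244 kb from the coding gene TMEM121, with percentiles of 83.1, 86.1 and 88.0 in shCtrl and 73.6, 69.6 and 82.7 in shSATB1. IGH itself is not annotated as a coding gene, and H3K27ac lay 1.55 kb from this region. Others lay 918 kb from TLE1, a corepressor gene, and inside the long gene MACROD2, 814 kb from its ends.

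Some genes listed for imprinting or insulation by CTCF had strong unmarked regions near them. Whether these regions are the known insulator sites was not examined. A region within 50 kb was found for 7749 of 19974 coding genes (38.8%), and a marked region for 57.4%. Of 19 imprinted and classic insulator genes, 7 (36.8%) had an unmarked region that near, a share close to that background. The strongest unmarked regions near these 7 genes were 4 distinct regions. At IGF2, an imprinted growth factor gene (chr11:2148864-2154899), the percentiles were 94.97, 93.85 and 95.12 in shCtrl and 96.53, 94.86 and 97.07 in shSATB1, with no H3K27ac within 110 kb. Inside KCNQ1, a potassium channel gene of the neighbouring imprinted domain (chr11:2529778-2535659), they were 98.5, 98.6 and 98.6 and then 95.5, 97.8 and 95.4. At DMPK, a kinase gene (chr19:45777951-45782168), the mean was 93.3 ± 3.68 (SD over 6 lists), and the region lay 8.70 kb from SIX5. APOA1 and APOC3, apolipoprotein genes, shared a region at 76.1 ± 6.47. Means and SDs over 6 lists, here and below, pool both arms, whose lists differ in length. Such an SD is therefore not the spread of replicates.

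HOX genes, which pattern the body axis, had an unmarked region within 50 kb at 21 of 24, while 15 of 24 had a marked one. The background shares over all coding genes were 38.8% and 57.4%. These genes sit in 4 clusters, so the count rests on 12 unmarked regions. The region 0.291 kb from HOXA9 (chr7:27158778-27162146) had percentiles of 87.7, 82.4 and 86.0 in shCtrl and 56.6, 74.4 and 81.7 in shSATB1. That beside HOXD8 (chr2:176139566-176143245) had 94.0, 93.7 and 93.8, then 85.7, 86.1 and 86.4. The region 17.4 kb from HOXB9 (chr17:48600255-48603799) had a mean of 85.0 ± 4.31 (SD over 6 lists) and no H3K27ac within 145 kb. Clustered protocadherin genes, adhesion molecules chosen singly by neurons with the help of CTCF, had one at 12 of 18 and a marked region at 6 of 18; these counts rest on 3 unmarked regions. Of 12 olfactory receptor genes, none had either kind.

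T-lineage transcription factor genes had a marked region within 50 kb at 15 of 15 and an unmarked one at 5 of 15 (33.3%), beside the background shares of 57.4% and 38.8%. These were RUNX3 (91.0 ± 4.30, SD over 6 lists), TCF7 (58.1 ± 21.7), NOTCH3, IKZF1 and BCL11B. T cell receptor signalling genes had an unmarked region at 12 of 20 and a marked one at 18 of 20. Highest among them were VAV1, a guanine exchange factor (chr19:6861057-6865024, percentiles 97.2, 96.8 and 96.6 in shCtrl and 97.0, 96.3 and 97.2 in shSATB1), LAT, an adaptor (94.2 ± 4.42), PLCG1, a phospholipase (78.7 ± 7.50), and CD4. CD3D, CD3E and CD3G share a single region at 55.8 ± 17.6. Ribosomal protein genes had an unmarked region at 6 of 18, with RPL19 highest, and a marked one at 16 of 18.

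Cytokine and receptor genes had an unmarked region at 8 of 17 and a marked one at 10 of 17, beside the background shares of 38.8% and 57.4%. The region over IL3 and 5.98 kb from CSF2, neighbouring cytokine genes of activated T cells (chr5:132058787-132067809, 9023 bp), had percentiles of 89.7, 90.1 and 89.4 in shCtrl and 76.4, 86.1 and 77.7 in shSATB1, with H3K27ac 0.827 kb away. CCR7, a homing receptor (92.5 ± 2.71, SD over 6 lists), and IL10 (84.7 ± 4.14) were also near such regions, as was IL2RA. T-cell leukaemia oncogenes had an unmarked region at 5 of 15 and a marked one at 9 of 15. By their unmarked region LYL1 (88.0 ± 1.98), TAL1 (81.1 ± 7.41), TLX1 and CCND2 were highest. Genes for cohesin and CTCF partners had an unmarked region at 7 of 18 (38.9%), level with the background, and a marked one at 15 of 18. By their unmarked region the highest were YY1, a looping factor (chr14:100281254-100288594, 98.4 ± 0.405), WAPL, the cohesin release factor (90.5 ± 3.94), and MAU2, a cohesin loader subunit (82.0 ± 6.17). A region also lay over CTCFL, the germline paralogue of CTCF, at 70.7, 72.7 and 70.7 in shCtrl and 29.9, 46.0 and 41.3 in shSATB1.

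Lists of other lineages gave mixed shares. B cell genes had an unmarked region within 50 kb at 7 of 11, myeloid genes at 4 of 12 and neuronal genes at 5 of 10. A marked region lay that near at 7 of 11, 7 of 12 and 4 of 10. The background shares were 38.8% for unmarked and 57.4% for marked regions. CD79B (78.9 ± 13.0, SD over 6 lists) and MS4A1 (78.5 ± 12.9) stood for the first, CEBPA, a myeloid transcription factor with the region over the gene itself (79.8 ± 6.03), for the second, and SYP (86.4 ± 6.74) and TUBB3 (85.2 ± 2.45) for the third. These lists are short, and their counts are given as a description.

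At the edge of the rule, 16 unmarked regions had a SATB1 or H3K27ac peak within 500 bp of them; none overlapped Matrin 3 list 1 and their median percentile among retained regions was 20.7. Just outside it, 11 marked regions had at most 500 bp under such peaks, of which 36.4% overlapped Matrin 3 list 1.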

How the data were processed

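CUT&Tag peak lists of 14 libraries were used, 1 list per library, called per sample. The build was GRCh38, and the tools named are SEACR, deepTools, SAMtools, Bowtie2 and Trim Galore, plus MACS2 except for Matrin 3, per the submitters' processing notes. Tool versions, read filters and use of a control library are not given in the sources used here. Deposited columns give each peak's total signal and maximum signal, unscaled coverage as whole numbers. The authors' signal was therefore ranked only within a list, as a percentile of maximum signal; the highest peak stands for a region. Positions are 1-based.

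Of 273747 peaks, 405 (0.148%) on other chromosomes or contigs were left out. Peak width at a region is the summed length of a list's peaks there. Genes, starts and promoter windows came from RefSeq tables of GRCh38.p14 (19974 coding genes). Gene ends means either annotated end; genes were not split into exons and introns. Libraries were compared by two-sided exact permutation tests. Shares carry 95% Wilson intervals.

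The regions, gene lists and tests were chosen with earlier results of these data known. Named were the 10 unmarked regions with the highest mean percentile (1 per gene), the 5 farthest from a gene end, the 5 richest 1 Mb windows, the 5 with the largest flank contrast, the 5 with the highest Matrin 3 peak, up to 4 genes per list, and up to 6 promoter sequences with the motif. Others, such as TBX21, HOXA9, HOXD8, HOXB9, CTCFL, CD3D, CD3E and CD3G, the long runs and gene names within windows, were chosen after their values were seen.

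Replicate numbers did not pair the libraries: same-numbered libraries had correlations of deviations of -0.0117, -0.00897 and -0.00201 for CTCF and of -0.00437 for both H3K27ac pairs. Alternatives were another overlap rule, windows on maxima, lists of equal length, other distances, leaving out each library, and the replicate block. The merging and distance steps were tested on simulated peaks. Scripts ran in Python 3.11.15 with scipy 1.17.1, pandas 2.3.3, numpy 2.4.6 and matplotlib 3.10.9.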

Additional observations from a re-analysis of the deposited data

How the results depend on the processing

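The number of unmarked regions stayed within 1.5 times of 4456 under every alternative run, from 4496 to 5903 without each library in turn (5903 without CTCF shSATB1 replicate 1); leaving out each SATB1 list was added after seeing the data. With lists of equal length it was 3504.

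The Matrin 3 share was 20.8% in windows on CTCF maxima, 24.3% with CTCF lists of equal length, 20.2% in a window on the CTCF maximum, 8.06% with the stronger 50% of list 1 and 0.247% with list 2; leaving out libraries gave 19.6% to 23.03%. Gene ends lay at 28.2% in windows on maxima, 33.7% within 1 kb and 47.7% within 5 kb, and at 34.9% to 37.8% when a CTCF library was left out. The median spacing was 76.6 kb with lists of equal length and 51.7 to 61.0 kb when a CTCF library was left out.

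The rank difference turned to -0.436 percentile points with total signal, and was 0.198 to 0.938 without each CTCF library, 0.248 in windows on CTCF maxima and 0.0608 with lists of equal length (exact permutation p = 0.8). The width difference was -1292 to -1563 bp and that of the width ratio -0.0720 to -0.0863 under the same omissions, and H3K27ac near unmarked regions differed by -0.645 to -4.08 points and its length by -0.508 to -0.769. With the replicate block (sign flips over pairs, smallest p 0.25 for CTCF and 0.5 for H3K27ac) the differences were -1482 bp for width, -0.0830 for the width ratio and 0.814 for rank (exact permutation p = 0.25 each), and -2.38 and -0.694 points for the H3K27ac measures (0.5 each); the block changed no call. The designs are too small to pass a 5% threshold, so the tests say nothing of stability. Where values moved, the cause was not tested. Depth is unknown, and limits which weak peaks could be called.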
